A study of Homo sapiens with 6 samples.

Results

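LIN9 and 9 other genes that drive the cell cycle were examined for peaks of plasminogen activator inhibitor-1 (PAI-1), a secreted protease inhibitor whose nuclear form was under study. The 10 genes, CCND1, CDK4, CDK6, CCNE1, E2F3, MYC, MDM2, LIN9, MYBL2 and AURKA, were chosen by name and are 10 of the 20163 protein-coding genes of the annotation. Peaks in each gene or within 10 kb of it were listed for each library, and where there was none the nearest peak was taken. The number of peaks per Mb from 1 Mb before to 1 Mb after each gene was also counted, because a region held in many copies can hold more called peaks. Copy number itself was not measured here.

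The data were 4 lists of peaks from chromatin immunoprecipitation followed by sequencing (ChIP-seq) with an antibody to endogenous PAI-1 on nuclear extracts. The cells were RT112 and UM-UC-3, both established lines derived from human bladder carcinoma, with 2 biological replicates each and no treatment named in the labels. The 2 input libraries, 1 for each line, were not analysed here. The lists held 96423 and 60227 peaks for RT112 replicates 1 and 2, and 109287 and 114094 peaks for UM-UC-3. Each peak has a score, taken to be −log10 of the p or q value that the peak caller gave, and the read depth of each library is unknown. Peak lists hold no expression values, so the identity of the lines was not checked against marker genes.

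The cell cycle begins when cyclin D with CDK4 or CDK6, and then cyclin E, inactivate the RB protein and free E2F factors to switch on genes of DNA replication. Later, the MuvB complex, of which LIN9 is a core subunit, joins B-Myb, the product of MYBL2, and FOXM1 to switch on mitotic genes such as AURKA, many of them through a promoter element called CHR. MYC raises the supply of cyclins and E2F factors, and MDM2 holds p53 in check. In bladder cancer, CCND1, CCNE1, E2F3, MDM2 and MYC are known for gains of gene copies.

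Peaks near these genes were about as frequent as near protein-coding genes as a whole, and few lay at a transcription start site (TSS), as over all genes. In RT112, 7 of the 10 genes had a peak in replicate 1 and 6 in replicate 2, whereas 65.9% and 54.7% of all protein-coding genes did. In UM-UC-3, 8 and 7 genes had one, against 70.9% and 71.8% of all genes. The mean number of genes was 6.5 ± 0.707 for RT112 and 7.5 ± 0.707 for UM-UC-3 (SD, n = 2; exact permutation test, two-sided p = 0.667). For RT112, 6 genes had a peak in both replicates, and for UM-UC-3 7 did, compared with 50.2% and 65.7% of all genes. These counts take any peak of each replicate, whether or not the peaks overlapped. At MYBL2 in UM-UC-3 they did not overlap. CDK6, CCNE1, E2F3, MYBL2 and AURKA, 5 genes, had a peak in all 4 libraries, as did 41.7% of all genes. CCND1 was the 1 gene with none in any library, as were 14.2% of all genes.

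The 10 genes held 21 and 14 peaks in RT112 replicates 1 and 2, and UM-UC-3 replicates held 30 and 25. The means were 17.5 ± 4.95 and 27.5 ± 3.54 (SD, n = 2), and the groups did not overlap (exact permutation test, p = 0.333, two-sided, the lowest value possible with 2 libraries against 2). Most of the difference came from CDK6: the other 9 genes held 14 and 11 peaks in the replicates of RT112, and the counts for UM-UC-3, 17 and 12, overlap these. With only the 25% of peaks of highest score, the direction turned, to a mean of 7 for RT112 against 6.5 for UM-UC-3. With peaks of a score of at least 5 it was kept, with means of 7 and 15. The RT112 lists were also shorter as a whole, and the part of list length in this difference was not tested. Of the 90 peaks, 63 were intronic, 13 upstream, 9 downstream, 3 in coding exons and 2 in a UTR. The TSS of a gene was taken as its outermost annotated start. By that rule, the TSS of the listed gene was the nearest protein-coding TSS for 53 of the 90 peaks. Within 3 kb of this TSS the 10 genes had a single peak, at MYBL2 in UM-UC-3 replicate 1. The other 3 libraries had 0. Over all genes, 9.52% and 6.3% had such a peak for RT112 and 12.2% and 12.8% for UM-UC-3. Starts of other annotated transcripts are not counted there, and the repeated CDK4 region of RT112 lay 862 and 866 bases from one.

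**Figure D1:**
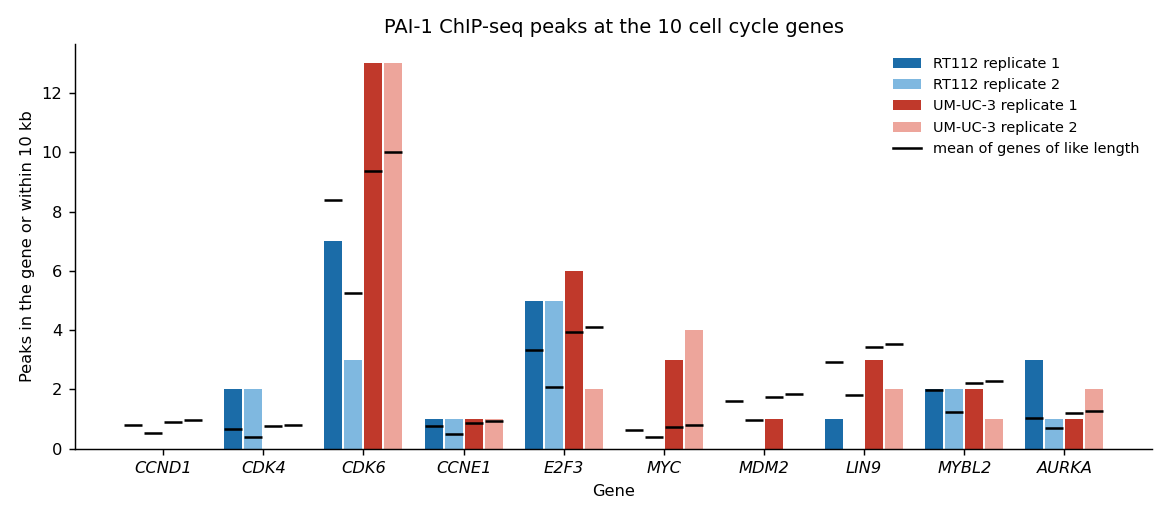
Number of peaks in each of the 10 genes or within 10 kb (vertical axis) for the 4 libraries (bars, 1 per library). Black lines mark the mean over protein-coding genes within 20% of the same length. CDK6 had 13 peaks in both UM-UC-3 libraries, above that mean, and MYC had 3 and 4 in UM-UC-3 and none in RT112.

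Among the peaks at the 10 genes, 10 of 21 and 10 of 14, or 47.6% and 71.4%, overlapped a peak of the other replicate in RT112 (mean 59.5 ± 16.8%, SD, n = 2). For UM-UC-3 it was 20 of 30 and 20 of 25, or 66.7% and 80% (mean 73.3 ± 9.43%). Over all peaks of the 4 lists the shares were 38.2%, 61.3%, 74.9% and 71.7%, and the difference from these shares was not tested. None of these peaks overlapped one called in the other line, and over all peaks 5.91% to 7.73% did. Overlap meant at least 1 shared base, and a CDK6 peak of RT112 replicate 2 ended just short of a UM-UC-3 region. The median score was 4.30 and 5.42 for RT112 and 4.19 and 5.16 for UM-UC-3, above the medians of all peaks in the same lists (3.80, 4.09, 3.88 and 3.85). Merging both replicates left 10 repeated regions in RT112 and 20 in UM-UC-3, and 11 of the 20 lay at CDK6. Several repeated regions had the same ends to the base in both replicates. Examples are chr7:92310977-92311442 in UM-UC-3 and chr20:42319667-42319903 in RT112. The labels call the replicates biological, and whether the libraries are independent was not tested, so these shares and SDs rest on the labels.

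**Figure D2:**
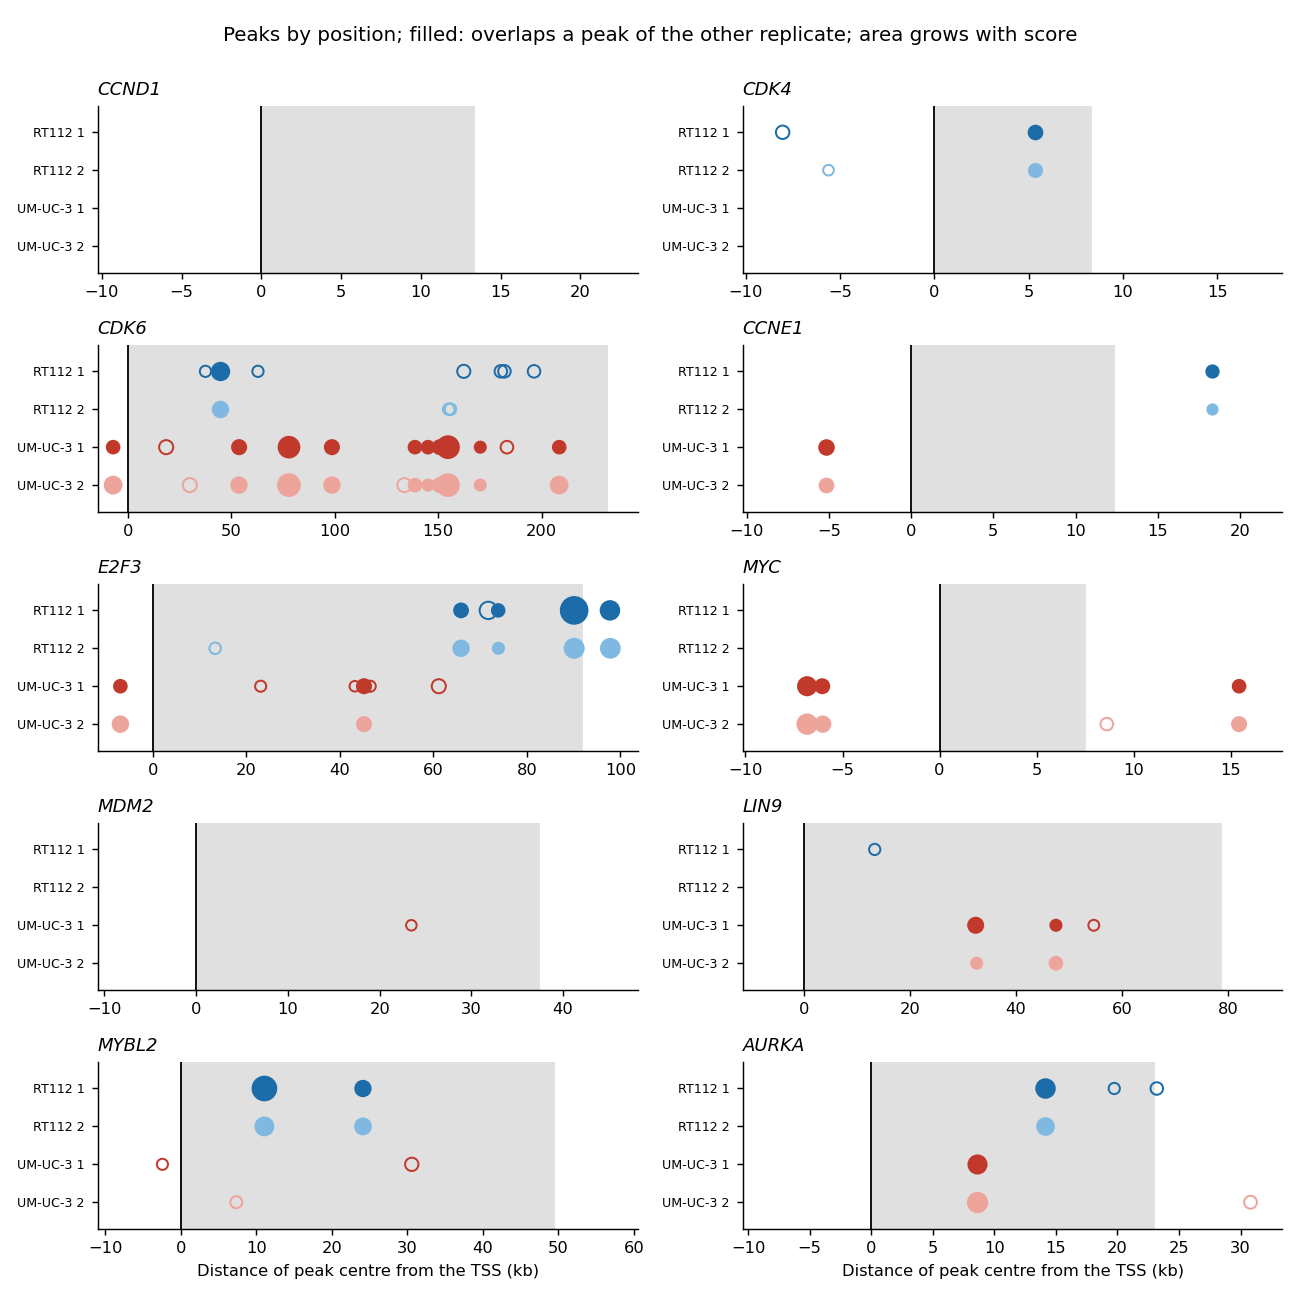
Distance of each peak from the TSS in kb (horizontal axis, direction of transcription positive) for each gene, with 1 row per library. Grey marks the gene body, filled circles are peaks that overlap a peak of the other replicate, and the circle area grows with the score. No circle falls in the CCND1 panel. Only CDK6, CCNE1, E2F3 and AURKA have filled circles of both lines, and there those of RT112 and UM-UC-3 lie at different places.

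The cyclin D arm comprises CCND1, which encodes cyclin D1, and its partner kinases CDK4 and CDK6. CCND1 (chr11:69455924-69469242) had no peak within 10 kb. Its nearest peaks lay 40.3 and 36.3 kb downstream in RT112 replicates 1 and 2, and 12.1 and 74.8 kb upstream in UM-UC-3 replicates 1 and 2. Only the last of these was repeated, and both RT112 libraries also shared the interval chr11:69406174-69406436, centred 49.6 kb upstream of the TSS, with scores of 8.95 and 5.17. Genes of the length of CCND1 often had no peak either: 50.5% and 63.4% for the libraries of RT112 and 44.6% and 43.3% for those of UM-UC-3.

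CDK4 (chr12:58141510-58149796), a G1 kinase, had 2 peaks in each RT112 library and 0 in each UM-UC-3 library. One of them was repeated, at chr12:58144241-58144639 in replicate 1, overlapping a coding exon 5.36 kb downstream of the TSS, with scores of 4.81 and 4.27. By the outermost start of each gene, its nearest protein-coding TSS was that of MARCHF9, at 4.45 kb. The start of another annotated CDK4 transcript lay closer, 862 bases from the peak of replicate 1. Each of the other peaks was found in 1 library alone, centred at -8.04 and -5.61 kb from the TSS, on the upstream side. Of 1491 genes of like length, 82.8% and 92.0% had fewer peaks than CDK4 in RT112. In UM-UC-3 the nearest peak lay 51.8 and 13.97 kb from the gene.

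CDK6 (chr7:92234235-92465887), the longest of the 10 genes at 231.7 kb, had 7 and 3 peaks in RT112 and 13 in each UM-UC-3 library. Almost all were in introns, and the cell lines did not overlap in number. RT112 gave 1 repeated region, at chr7:92421173-92421512, 44.5 kb downstream of the TSS, with scores of 8.75 and 6.56. Another RT112 region found in both lists, 11.1 kb upstream of the TSS, fell just outside the 10 kb limit. UM-UC-3 gave 11 repeated regions. The strongest was chr7:92310977-92311442, with the same ends in both replicates and scores of 14.6 and 14.6. Just before its start ended a peak of RT112 replicate 2, chr7:92310707-92310973, which scored 2.97 and was not repeated. The next strongest UM-UC-3 region was chr7:92387811-92388322, with scores of 12.9 and 14.6. The UM-UC-3 region nearest to the TSS lay 7.14 kb upstream, inside the antisense gene CDK6-AS1, and scored 3.88 and 8.05. Among 729 genes of like length, 78.6% and 75.2% had fewer peaks than CDK6 in UM-UC-3, whereas 53.4% and 67.6% had more in RT112.

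The repeated intronic CDK6 region of RT112 is shown because it was the only one that both RT112 libraries shared at this gene, as chr7:92421174-92421443 of replicate 2 on the plus strand of GRCh37. In this and the peak sequences that follow, capitals mark a match to a motif described further on, and a sequence with no capitals holds none.
CDK6, RT112: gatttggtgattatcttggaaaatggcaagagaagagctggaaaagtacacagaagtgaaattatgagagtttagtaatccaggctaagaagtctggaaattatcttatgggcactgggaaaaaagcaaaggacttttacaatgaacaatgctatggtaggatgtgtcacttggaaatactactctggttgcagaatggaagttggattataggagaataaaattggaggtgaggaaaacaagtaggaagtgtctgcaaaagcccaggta

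CCNE1 (chr19:30302898-30315219), which encodes cyclin E1, had 1 peak in each of the 4 libraries, outside the gene and on opposite sides of it in the 2 lines. In RT112 the peak lay 5.84 kb beyond the gene end and scored 3.58 and 2.00, the latter being the lowest score of its list. In UM-UC-3 it lay upstream, centred 5.15 kb from the TSS, and scored 5.65 and 4.93. Both were repeated with nearly the same ends. The RT112 interval, chr19:30321063-30321358 in replicate 1, is shown because it is the only CCNE1 peak of that line. Of its 31-base words, 100% occurred once in the genome.
CCNE1, RT112: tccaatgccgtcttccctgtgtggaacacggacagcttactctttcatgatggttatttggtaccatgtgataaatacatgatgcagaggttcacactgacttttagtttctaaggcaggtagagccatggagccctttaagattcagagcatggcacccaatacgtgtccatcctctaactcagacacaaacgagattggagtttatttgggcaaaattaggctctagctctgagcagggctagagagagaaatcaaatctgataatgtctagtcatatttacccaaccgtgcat

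E2F3 (chr6:20402110-20493945) encodes an E2F factor that activates replication genes. It had 5 and 5 peaks in the RT112 lists and 6 and 2 in those of UM-UC-3. The RT112 peaks lay 65.9 kb or more downstream of the TSS, apart from 1 of replicate 2 at 13.3 kb, and those of UM-UC-3 lay between 6.97 kb upstream and 61.2 kb downstream. The strongest peak at any of the 10 genes was chr6:20492074-20492376 in the 3′ UTR of E2F3, 90.1 kb downstream of the TSS, with a score of 22.7 in RT112 replicate 1 and 10.8 in replicate 2. Of its 31-base words, 53.5% were found once in the genome. RT112 had 3 further repeated regions, centred 65.9, 73.9 and 97.8 kb downstream of the TSS in replicate 1. UM-UC-3 had 2 repeated regions, 6.97 kb upstream (scores 3.88 and 6.57) and 45.2 kb downstream (scores 5.19 and 5.16). Of 1634 genes of like length, 72.4% and 90.2% had fewer peaks for RT112, and 76.9% and 14.4% for UM-UC-3, so the replicates of UM-UC-3 did not give the same picture.

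MYC (chr8:128747680-128755197), which encodes a factor that drives growth and cell cycle entry, had no peak within 10 kb in the RT112 lists and 3 and 4 in those of UM-UC-3. The UM-UC-3 peaks flanked the gene and none lay in it. A pair of repeated regions lay upstream, inside the non-coding gene CASC11. The farther one was centred 6.83 kb from the TSS and scored 9.65 and 11.2, and the nearer one was centred 6.05 kb away in replicate 1 and scored 5.13 and 6.45. A further repeated region lay 15.4 kb downstream of the TSS, and the additional peak of replicate 2 at 8.62 kb was not repeated. For 1395 genes of like length, 94.3% and 97.3% had fewer peaks than MYC in UM-UC-3. RT112 had peaks just beyond the limit, 10.2 kb past the gene end in replicate 1 (not repeated) and 12.7 kb before the gene in both libraries, where the shared interval scored 7.12 and 3.998.

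MDM2 (chr12:69201957-69239324), the ubiquitin ligase of p53, had a single peak in UM-UC-3 replicate 1 and none in the other 3 libraries. That peak, 23.5 kb downstream of the TSS, scored 2.25 and was not repeated. The nearest peak in RT112 lay 13.1 kb upstream in both replicates and scored 6.31 and 5.35. In UM-UC-3 replicate 2 the nearest lay 28.7 kb upstream. Genes of like length had more peaks than MDM2 in 72.3%, 56.1%, 50.8% and 79.1% of cases across the 4 libraries.

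LIN9 (chr1:226418850-226497570, minus strand) had 1 and 0 peaks in the RT112 lists and 3 and 2 in those of UM-UC-3. The lines did not overlap, but the counts were small and lay at or below the median of 3 that 1774 genes of like length had in UM-UC-3. Of those genes, 72.5% and 77.7% had more peaks than LIN9 in RT112, and 42.8% and 64.5% had more in UM-UC-3. The RT112 peak, 13.4 kb into the gene, scored 2.76 and was not repeated, and the nearest peak of RT112 replicate 2 lay 30.2 kb downstream of the gene. UM-UC-3 had 2 repeated regions. The first, 32.4 kb into the gene, was 667 bases long in replicate 1, where it covered part of a coding exon and scored 6.17, and 279 bases long in replicate 2, where it was intronic and scored 2.63. The second was intronic, 47.6 kb into the gene, with scores of 2.64 and 3.85.

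The study designed ChIP-PCR primers for LIN9, and their amplicon was located at chr1:226497651-226497743, its only exact match in GRCh37. This is 93 bases long and lies 81 to 173 bases upstream of the TSS. No library had a peak there: the nearest was 13.3 and 51.5 kb away in RT112 and 16.9 kb away in both UM-UC-3 libraries. The amplicon is shown with the primer sites in capitals, because it is the stretch of the LIN9 promoter that the study chose to test. It is given on the plus strand, against the direction of LIN9.
LIN9 amplicon: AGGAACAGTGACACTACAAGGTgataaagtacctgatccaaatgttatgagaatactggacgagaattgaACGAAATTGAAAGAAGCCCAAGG

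MYBL2 (chr20:42295659-42345135) encodes B-Myb, the partner of the LIN9 complex before mitosis. It had 2 peaks in each RT112 library and 2 and 1 in UM-UC-3, and only those of RT112 were repeated. The RT112 region nearest to the TSS, chr20:42306583-42306904, 11.1 kb into the gene, scored 17.6 and 9.31, among the highest values at the 10 genes. Only 0.343% of its 31-base words occurred once in the genome, and the median word occurred 860.5 times. The other, chr20:42319667-42319903, scored 6.45 and 6.96, and all of its words were unique. In UM-UC-3 the peaks scored 2.64, 4.51 and 3.30, and the first of these, 2.41 kb upstream of the TSS, was the one TSS peak mentioned above. The remaining intervals had 34.6% and 26.2% unique words. The unique RT112 region is shown, with a CHR motif in capitals.
MYBL2, RT112: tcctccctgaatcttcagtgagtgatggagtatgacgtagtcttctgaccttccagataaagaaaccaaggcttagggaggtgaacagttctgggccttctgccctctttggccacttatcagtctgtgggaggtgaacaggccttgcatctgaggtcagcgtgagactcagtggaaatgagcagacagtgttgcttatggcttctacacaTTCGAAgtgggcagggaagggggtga

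AURKA (chr20:54944445-54967393) encodes the mitotic kinase Aurora A, a target of the LIN9 complex with B-Myb. It had 3 and 1 peaks in the RT112 lists and 1 and 2 in those of UM-UC-3. Each line had 1 repeated region, both were intronic, and they did not overlap. That of RT112 lay 14.1 kb into the gene and scored 10.1 and 7.90. That of UM-UC-3, chr20:54958674-54958960, lay 8.58 kb into the gene, had the same ends in both replicates and scored 9.65 and 11.2. Of 2058 genes of like length, 88.1% had fewer peaks than AURKA in RT112 replicate 1, and between 34.3% and 63.5% did in the other 3 libraries. The UM-UC-3 interval is shown because both of its ends were the same in the 2 replicates.
AURKA, UM-UC-3: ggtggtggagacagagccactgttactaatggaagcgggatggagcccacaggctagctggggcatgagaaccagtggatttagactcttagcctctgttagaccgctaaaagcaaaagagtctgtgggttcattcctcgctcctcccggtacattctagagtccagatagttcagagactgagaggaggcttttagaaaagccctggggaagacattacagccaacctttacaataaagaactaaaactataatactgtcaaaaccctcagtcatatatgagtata

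Binding motifs of the factors that the 10 genes encode or act with were searched for on both strands of every peak. The words were CACGTG for MYC (E-box), TTTGGCGC, TTTCCCGC, TTTGCCGC or TTTCGCGC for E2F factors, and TTTGAA or TTCGAA for the CHR element. An E-box was found in 1 of the 30 peaks at these genes in UM-UC-3 replicate 1 and in 0 of those in the other libraries, against 2.64% to 3.18% of all peaks. No peak at the 10 genes held an E2F word, which 0.284% to 0.335% of all peaks did. CHR words occurred in 5 of 21 and 1 of 14 peaks in RT112 (all peaks 30.2% and 26.8%) and in 10 of 30 and 5 of 25 in UM-UC-3 (all peaks 30.4% and 30.2%). The LIN9 amplicon held none of these words. These matches describe letters within the intervals and do not mark binding sites.

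The density of peaks over 1 Mb on both sides was high around MYC in both lines and around MYBL2 and AURKA in RT112, and low around CCND1. It was expressed relative to that of chromosomes 1 to 22 and X in the same library, so that 1 is the genome mean. For all 20086 genes with enough assembled sequence, the 5th to 95th percentile was 0.373 to 1.53 and 0.349 to 1.62 for RT112, and 0.402 to 1.44 and 0.432 to 1.45 for UM-UC-3. In RT112, MYBL2, MYC and AURKA, 3 genes, reached 1.5 in both replicates, as did 4.74% of all genes. In UM-UC-3 only MYC, 1 gene, did, as did 3.14% of all genes.

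**Figure D3:**
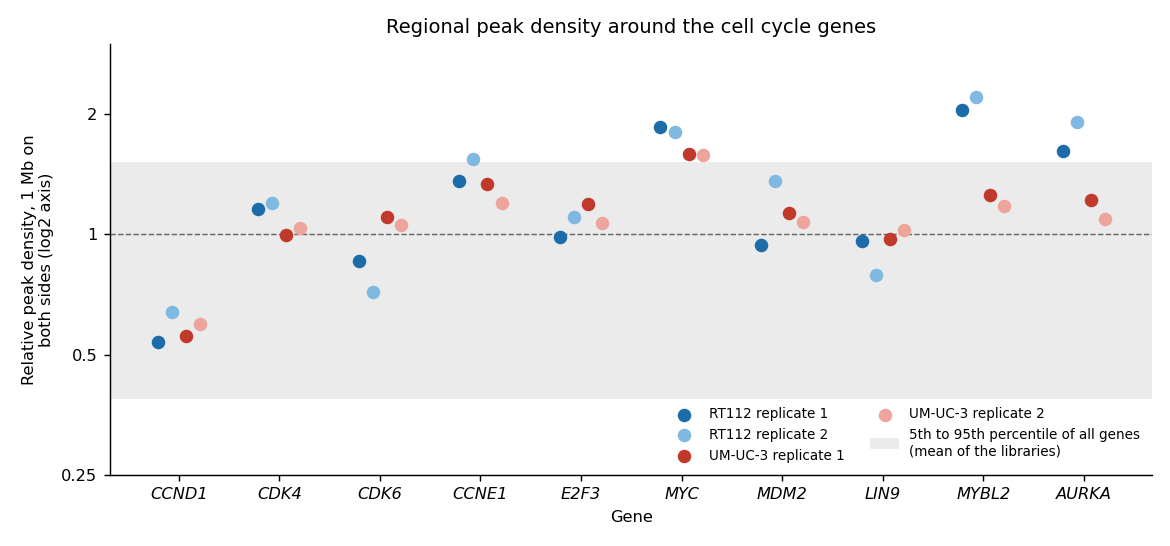
Relative peak density from 1 Mb before to 1 Mb after each gene (vertical axis, log2 scale, 1 is the genome mean), with 1 point per library. The grey band is the 5th to 95th percentile of all genes, averaged over the libraries. MYC lies above the band in all 4 libraries, and MYBL2 and AURKA in both RT112 libraries. CCNE1 in RT112 replicate 2 also does, but is below the 95th percentile of that library alone, 1.62. CCND1 lies at 0.538 to 0.640.

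MYBL2 had the highest density in RT112, with 2.05 and 2.21, and 1.25 and 1.18 in UM-UC-3. This was higher than the density around 99.5% of genes in both RT112 libraries and around 86.2% and 79.4% in UM-UC-3. MYC followed with 1.86 and 1.81 in RT112 and was the highest in UM-UC-3 with 1.59 and 1.58. AURKA had 1.61 and 1.91 for RT112 and 1.22 and 1.09 for UM-UC-3. CCNE1 had 1.36 and 1.54 for RT112 and 1.34 and 1.20 for UM-UC-3, and 81.7% to 93.4% of genes had a lower density than it across the libraries. CCND1 had the lowest density of the 10 genes, with 0.538 and 0.640 for RT112 and 0.556 and 0.598 for UM-UC-3.

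In RT112 the order by mean was MYBL2, MYC, AURKA, CCNE1, CDK4, MDM2, E2F3, LIN9, CDK6 and CCND1. Replicates of neighbours in this order overlapped between MYC and AURKA, between CDK4 and MDM2, between MDM2 and E2F3, and between LIN9 and CDK6, and otherwise did not. In UM-UC-3 the order was MYC, CCNE1, MYBL2, AURKA, E2F3, MDM2, CDK6, CDK4, LIN9 and CCND1. There, MYC lay above and CCND1 below all others in both replicates. From CCNE1 to CDK6 each gene overlapped its neighbour, as did CDK4 and LIN9.

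The GC content of the window moved with its density. Over the genes tested, the correlation of window GC content and log2 relative density was −0.51 and −0.44 for RT112 and −0.60 and −0.61 for UM-UC-3 (Pearson's r, a description over genes with overlapping windows). CCND1 had the most GC-rich window of the 10, with 50.9%, and CDK6 the least, with 37.7%. Beside genes whose windows were within 1 percentage point of the same GC content, CCND1 was no longer low: 46.0%, 64.4%, 26.4% and 43.0% of them had a lower density. The high densities stayed high on this scale. For MYBL2 in RT112, 99.5% and 98.8% of genes of like GC content lay lower, and for MYC 93.7% to 98.7% did across the 4 libraries.

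Both UM-UC-3 libraries lay above both RT112 libraries in relative density at 2 genes, CDK6 and LIN9, whereas 37.9% of all genes did so. They lay below at 5 genes, CDK4, CCNE1, MYC, MYBL2 and AURKA, whereas 35.7% of all genes did so. The lines overlapped at the remaining 3, CCND1, E2F3 and MDM2. Since 2 libraries against 2 cannot give a two-sided exact p below 0.333, each of the differences without overlap has that value. The median log2 difference, UM-UC-3 minus RT112, was -0.11 over the 10 genes and 0.02 over all genes.

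The difference was greatest at MYBL2. Its mean relative density was 2.13 ± 0.109 for RT112 and 1.21 ± 0.0545 for UM-UC-3 (SD, n = 2), a log2 difference of -0.81. AURKA, on the same chromosome, had 1.76 ± 0.209 and 1.16 ± 0.0884, a log2 difference of -0.60. Of all genes, 3.67% had a lower difference than MYBL2 and 9.13% a lower one than AURKA. Chromosome 20 as a whole had a relative density of 1.69 and 1.81 for RT112 and of 0.935 and 0.911 for UM-UC-3. When the density was taken relative to the same chromosome, the log2 differences became 0.11 for MYBL2 and 0.32 for AURKA, so the lower density in UM-UC-3 was not seen on that scale. Relative to genes of like GC content they were -0.68 and -0.48, still below 0. Copy number and binding cannot be told apart in these densities.

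MYC had 1.83 ± 0.0386 in RT112 and 1.59 ± 0.00359 in UM-UC-3, a log2 difference of -0.21. It also turned relative to its chromosome, to 0.12, as chromosome 8 had 1.26 and 1.29 for RT112 and 1.01 and 1.02 for UM-UC-3. CDK6 had 0.787 ± 0.0985 in RT112 and 1.08 ± 0.0329 in UM-UC-3, a log2 difference of 0.46. Its sign held in all 15 alternatives tried. LIN9 was close to the genome mean, with 0.962 and 0.793 for RT112 and 0.974 and 1.03 for UM-UC-3. Its log2 difference of 0.20 became -0.02 relative to chromosome 1, and 27.5%, 13.0%, 40.6% and 47.6% of genes of like GC content had a lower density in the 4 libraries.

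**Figure D4:**
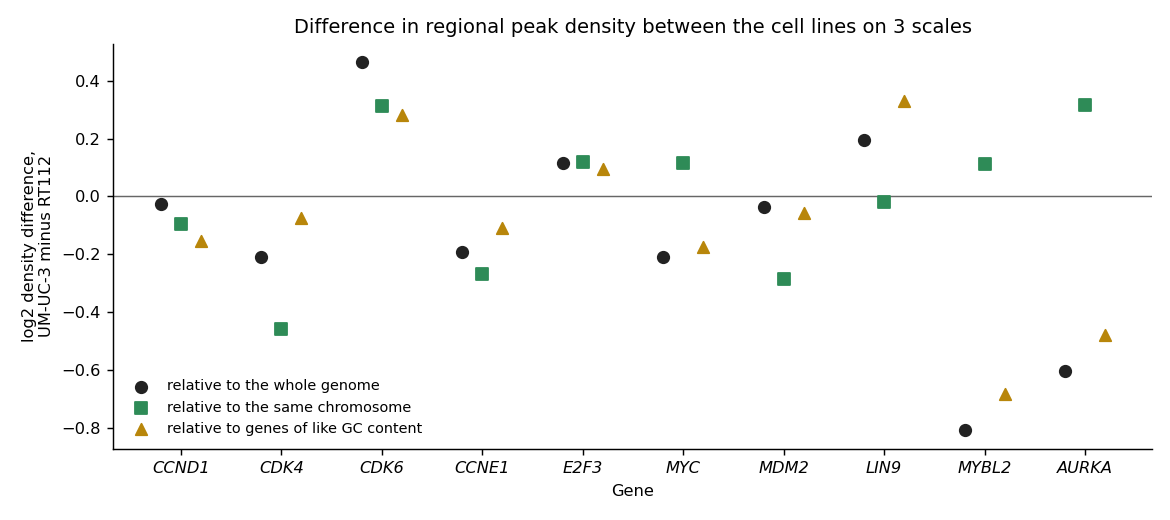
Difference in log2 regional peak density, UM-UC-3 minus RT112 (vertical axis), for each gene on 3 scales: relative to the genome (circles), to the same chromosome (squares) and to genes of like GC content (triangles). CDK6 stays above 0 on the 3 scales, and MYC, MYBL2 and AURKA are below 0 relative to the genome and to genes of like GC content and above 0 relative to their chromosome.

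The density around MYBL2 in RT112 was higher on the side before the gene than on the other. From the TSS to 1 Mb before it there were 93 and 65 peaks in RT112, and from the TSS to 1 Mb after it 49 and 30. The genome means of those lists were 34.0 and 21.2 peaks per Mb, so both sides lay above them. Chromosome 20 as a whole had 1.69 and 1.81 times those means, and only the side before the TSS lay above that level. The corresponding numbers in UM-UC-3 were 44 and 42 before the TSS and 51 and 54 after it. The step of 100 kb that starts 400 kb before the TSS held 20 and 15 RT112 peaks, the most of any step within 2 Mb, where the mean per step was 7.28 and 4.58. Around AURKA the numbers were more even, with 45 and 34 peaks before and 65 and 45 after the TSS in RT112. Around MYC, RT112 had 60 and 34 peaks before and 66 and 43 after the TSS, and UM-UC-3 had 68 and 68 before and 54 and 59 after it.

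**Figure D5:**
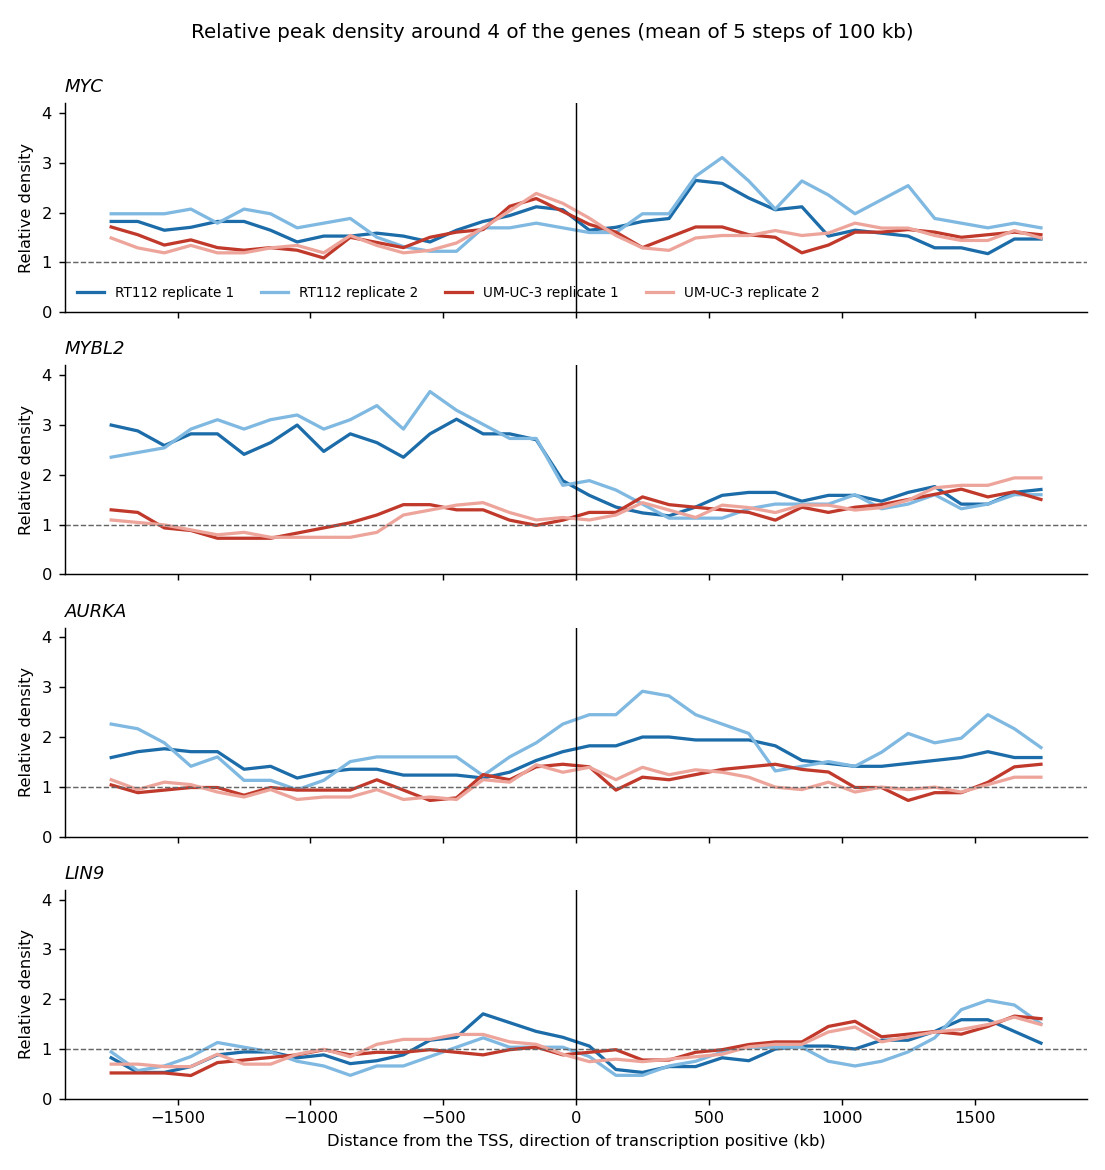
Relative peak density by distance from the TSS (horizontal axis, kb, direction of transcription positive) around MYC, MYBL2, AURKA and LIN9, as a running mean over 5 steps of 100 kb, with 1 line per library. At MYBL2 the RT112 lines lie above those of UM-UC-3 before the TSS and meet them after it.

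The genes most like LIN9 in regional peak density were sought among 209 protein-coding genes on other chromosomes. These had a length within 20% and the same presence or absence of a peak in each of the 4 libraries. By the summed absolute difference of 4 log2 relative densities, the nearest were PCDHAC1 (0.107), MAP3K3 (0.169) and NCEH1 (0.242). PCDHAC1 had relative densities of 0.931 and 0.790 for RT112 and 0.945 and 1.04 for UM-UC-3. That these are close to those of LIN9 follows from the choice.

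Other genes of the same pathway, 49 in all, had peaks less often in RT112 than in UM-UC-3, as all genes did. Of these, 28 and 21 had a peak in or within 10 kb for RT112 replicates 1 and 2, and 35 and 33 for those of UM-UC-3. These are 57.1%, 42.9%, 71.4% and 67.3%, beside 65.9%, 54.7%, 70.9% and 71.8% of all genes. Both replicates gave one for 19 (38.8%) in RT112 and 32 (65.3%) in UM-UC-3, beside 50.2% and 65.7% of all genes. Here too any peak of each replicate counted, whether or not the peaks overlapped. Of the 7 MuvB subunits and partners, LIN52, LIN54, RBBP4 and DYRK1A had a peak in both replicates of both lines, as did 41.7% of all genes. FOXM1, which takes over from B-Myb at mitotic genes, had one in both replicates of RT112. LIN37 had 0 peaks in each library, and MYBL1 had 1, in UM-UC-3 replicate 1. Of the 15 mitotic genes, 3 had one in both replicates of RT112 and 11 in both of UM-UC-3, with TPX2, the activator of Aurora A, and the motor gene KIF11 in both lines. Of the 9 E2F and RB genes, 4 and 5 had one in both replicates of RT112 and UM-UC-3, among them RB1 in both lines. The same counts were 1 and 3 for 5 G1 cyclins and kinases, and 2 and 3 for 7 CDK inhibitors. They were 4 and 6 for 6 partners of MYC and MDM2. Most genes named here with a peak in both replicates are long: LIN52 116.5 kb, LIN54 103 kb, DYRK1A 160.8 kb, TPX2 62.5 kb, KIF11 81.3 kb and RB1 295.7 kb. RBBP4 has 35.1 kb and FOXM1 19.5 kb, and the median of the 49 is 35.1 kb. Of genes of the length of CDK6, 97.3% to 99.7% had a peak across the libraries, and of those of the length of MYC 29.7% to 48.2%. The 49 genes were not compared with genes of like length. Among the 49, only AURKB, the Aurora B kinase gene, had a peak within 3 kb of its TSS in both replicates of a line. The peak lay at -2737 bases from the TSS in RT112 and scored 3.93 and 2.37. For RT112, 9.52% and 6.3% of all genes had a TSS peak in replicates 1 and 2. The share of all genes with one in both replicates was not computed.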

How the data were processed

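PAI-1 ChIP-seq was analysed in 2 replicate libraries each of RT112 and UM-UC-3, grouped by their labels. Per the study's methods, the authors aligned reads to hg19 (Bowtie 1.1.1, default settings), dropped PCR duplicates (Picard) and called peaks (MACS2 2.1.0.20140616); the submitters' processing notes also name FastQC and Trimmomatic. The use of the input as control, pooling and the threshold of these lists are not given in the sources used here; a legend names a false discovery rate limit for bound probe sets, without relating it to the lists. Scores in the lists that the authors deposited were taken as −log10 p or q values; which of these is not stated. Intervals listed more than once were counted once with the highest score. Reads per peak are not in the lists, and sequencing depth is described only as a mean across samples, so per-library depth was unknown and no counting interval was computed.

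Genes came from GENCODE 44 on GRCh37, and coordinates are counted from 1. Peaks were assigned within 10 kb of a gene and counted as repeated at 1 bp of overlap. Regional density was peaks per Mb of assembled sequence, leaving out genes with under 0.5 Mb. Differences between lines were set against the replicate SD, with exact two-sided permutation tests. Of each gene's peaks, the text names the one nearest to the TSS and the strongest in each line, preferring repeated ones, and some others by their place. Printed peaks are repeated ones of at most 300 bases, none from chromosome 8; some others are not reported here. The genes, gene lists and rules were chosen with earlier results of these data known. Counting and overlap were tested on simulated data. Python 3.11.15, numpy 2.4.6, pandas 2.3.3, scipy 1.17.1, pysam 0.24.0 and matplotlib 3.10.9 were used. Alternatives were score limits, windows, scalings and leaving out each library.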

Additional observations from a re-analysis of the deposited data

How the results depend on the processing

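With peaks of a score of at least 5, RT112 had a mean of 4 genes with a peak, 7 peaks and a repeated share of 85.7%, UM-UC-3 had 15 peaks, and the median log2 density difference was -0.31. The 25% of peaks with the highest scores gave 4 genes, 7 peaks and 85.7% for RT112, and 3.5 genes and 6.5 peaks for UM-UC-3. A window of 50 kb gave 10 genes and 52 peaks for RT112 and 60 peaks for UM-UC-3. With no scaling to the library the median density difference was 0.44, since the UM-UC-3 lists are longer. The median was 0.03 with 5 Mb on both sides and 0.05 relative to the same chromosome, so its sign turned in both settings. Leaving out each library gave medians of -0.21 to -0.02, 6 to 7 genes with a peak in RT112 and 7 to 8 in UM-UC-3; a repeated share needs both replicates and was not computed without one. Replicate 1 deviations of the lines had a correlation of -0.03 over genes, so the numbers are not known to pair the libraries; a replicate block leaves the median at -0.11 by construction, since the design is balanced, and says nothing of stability. Of 15 other alternatives, the sign of the density difference was kept in 15 at CDK6, 14 at E2F3, MYBL2 and AURKA, 13 at MYC and LIN9, 12 at CDK4 and CCNE1, 10 at MDM2 and 9 at CCND1. The setting relative to genes of like GC content was chosen after seeing the data. Causes of these changes were not tested. Without read counts, depth limits could not be set.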

Other observations

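Scores and repeats in the wide windows were also counted. In the 1 Mb on both sides of MYBL2 the median score was 4.15 and 5.29 in RT112, and around CCND1, where density was lowest, it was 4.94 and 5.14. The share of peaks repeated in the other replicate was 41.96% and 62.5% around MYBL2, 47.2% and 77.9% around MYC, and 31.4% and 42.3% around CCND1 in RT112. For UM-UC-3 this share was 66.7% and 68.0% around MYBL2, and 78.0% and 69.6% around CCND1. Over all peaks it was 38.2% and 61.3% for RT112, and 74.9% and 71.7% for UM-UC-3. The CCND1 window held only 35 and 26 peaks in the RT112 lists. A peak centred at -667 bases from the TSS of CDKN1B, which encodes the cyclin-dependent kinase inhibitor p27, scored 6.15 in RT112 replicate 1 and was not repeated.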
